A study of Homo sapiens with 6 samples.

Results

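The insulin-like growth factor (IGF) binding proteins, the 2 IGF receptors and the 2 main insulin receptor substrates were described in A375 cells, a human malignant melanoma line with an activating BRAF mutation, after knockdown of matrix metalloproteinase 9 (MMP9). The genes were taken by symbol: IGFBP2, IGFBP3, IGFBP4, IGFBP5, IGFBP6, IGFBP7, IGF1R, IGF2R, IRS1 and IRS2. All 10 were found among the 18539 genes of the deposited table. The family was chosen by its differences in scaled count between the groups, which were known from earlier results of these data, so those differences are given as a description, with no test, and support nothing further. The series asks how the melanoma transcriptome responds to MMP9 depletion. In the shMMP9 group (3 libraries) the cells carried a lentiviral hairpin against MMP9, and in the shControl group (3 libraries) a control hairpin. Both groups were A375 cells grown in medium with 10% fetal bovine serum, infected with 8 μg/ml polybrene and kept for 2 weeks under 2 μg/ml puromycin. A single MMP9 hairpin sequence is given, that of the control hairpin is not given in the sources used here, and the labels do not tell whether the replicates of a group were separate cultures.

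IGF1 and IGF2 are peptide growth factors that signal through the receptor tyrosine kinase IGF1R, which phosphorylates the docking proteins IRS1 and IRS2 and so recruits PI3-kinase and the RAS pathway. IGF2R, also known as the cation-independent mannose 6-phosphate receptor, takes IGF2 into the cell for degradation and carries lysosomal enzymes, without signalling as IGF1R does. Secreted IGF-binding proteins hold the ligands away from the receptor, and proteases release them. In melanocytic cells IGFBP7 has been described as a secreted inhibitor of growth downstream of BRAF, and IGFBP5 and IGFBP3 are known also to act apart from IGF binding.

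The target of the MMP9 hairpin, given by the submitters as coding, is printed because every comparison rests on it. A full match was found in 1 of 206694 GENCODE transcripts, that of MMP9, and in none of the 10 genes described here. Only the full 21 bases were searched for. Whether the hairpin acts on other transcripts through shorter matches was not tested.
hairpin target in MMP9: cattcagggagacgcccattt

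Upstream sequences of 4 of the 5 genes whose log2 difference was 1 or more in size are shown, with 2 genes that were higher in shMMP9 (IGFBP3, IGFBP5) before 2 that were lower (IGFBP4, IRS1). Each is the 250 bases before the gene's start in RefSeq on GRCh38.p14, 5′ to 3′ on the gene's strand. They are IGFBP3 at chr7:45921273-45921522 (minus strand), IGFBP5 at chr2:216695550-216695799 (minus strand), IGFBP4 at chr17:40443200-40443449 (plus strand) and IRS1 at chr2:226799821-226800070 (minus strand). The GENCODE gene of IGFBP3, whose position is given below, starts further upstream, at 45921874. Its printed window thus lies inside that gene and is upstream of the RefSeq start only. The windows of IGFBP5, IGFBP4 and IRS1 lie before the start in both annotations. Capitals mark matches, on either strand, to any of 5 motifs: the core promoter element TATAAA, the GC box GGGCGG, the TEAD site GGAATG, the AP-1 site TGANTCA and the forkhead site GTAAACA, with overlapping matches counted.
IGFBP3: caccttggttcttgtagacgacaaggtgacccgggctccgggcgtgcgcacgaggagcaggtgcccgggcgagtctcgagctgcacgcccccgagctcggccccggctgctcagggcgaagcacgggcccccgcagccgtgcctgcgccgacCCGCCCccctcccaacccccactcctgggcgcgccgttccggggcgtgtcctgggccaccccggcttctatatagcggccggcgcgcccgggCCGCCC
IGFBP5: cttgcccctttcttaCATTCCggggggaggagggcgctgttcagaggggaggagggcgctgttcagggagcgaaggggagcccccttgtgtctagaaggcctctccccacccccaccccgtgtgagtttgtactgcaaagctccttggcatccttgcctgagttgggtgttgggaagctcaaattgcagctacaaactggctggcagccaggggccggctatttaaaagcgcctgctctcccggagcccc
IGFBP4: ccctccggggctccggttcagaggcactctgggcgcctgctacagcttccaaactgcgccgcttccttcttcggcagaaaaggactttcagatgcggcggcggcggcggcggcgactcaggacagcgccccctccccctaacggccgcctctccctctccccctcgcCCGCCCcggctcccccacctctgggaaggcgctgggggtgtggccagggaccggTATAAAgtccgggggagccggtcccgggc
IRS1: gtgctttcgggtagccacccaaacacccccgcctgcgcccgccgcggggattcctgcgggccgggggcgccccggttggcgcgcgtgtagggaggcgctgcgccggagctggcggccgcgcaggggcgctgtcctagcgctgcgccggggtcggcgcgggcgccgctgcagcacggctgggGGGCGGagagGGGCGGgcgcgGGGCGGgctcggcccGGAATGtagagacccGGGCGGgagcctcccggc

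The capitals show no motif common to the pair that was higher and missing from the pair that was lower. IGFBP3 held 2 GC boxes, IGFBP5 held 1 TEAD letter match and no GC box, IGFBP4 held 1 TATAAA and 1 GC box, and IRS1 held 4 GC boxes and 1 TEAD letter match. None of the 4 windows held the AP-1 or the forkhead letters. Over 35116 RefSeq windows of the same length, 42.6% held a GC box, 11.9% the TEAD letters, 10.7% the TATAAA letters, 6.57% the AP-1 letters and 2.98% the forkhead letters. GC content was 76% for IGFBP3, 61.2% for IGFBP5, 71.6% for IGFBP4 and 80.8% for IRS1, against a median of 58.0% over all windows. A match is a run of letters and not evidence of binding.

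Levels below are gene counts scaled by the authors to a common upper quartile (scaled counts), given per library and as mean ± SD with n = 3 per group. Differences are on the log2(scaled count + 1) scale, shMMP9 minus shControl, with the standard error (SE) of a limma fit over all genes. The libraries held an estimated 21854123 to 28005552 reads, and each of the 10 genes had between 391 and 20661 estimated reads in every library. MMP9 itself was listed at 16.15, 14.55 and 17.1 in the shMMP9 libraries, against 26.1, 24.3 and 28.7 in the shControl libraries, a fall of 0.69 on the log2 scale (SE 0.0847, limma adjusted p = 1.25e-05). Reads of genes with a symbol starting with MT- made up 0.62 to 0.71% in shMMP9 and 1.64 to 1.79% in shControl. Of 9 melanocyte lineage markers 7 were listed and 5 tested, of which 3 rose, 1 fell and 1 did not pass, with a median log2 difference of 1.05. SOX10, a neural crest and melanocyte factor, stood at 785 ± 40.6 in shMMP9 and 378 ± 18.4 in shControl, MIA at 193 ± 4.17 in shMMP9 and 58.9 ± 3.34 in shControl and S100B at 28.1 ± 1.35 in shMMP9 and 9.46 ± 0.715 in shControl, while MITF, the one that fell, stood at 27.7 ± 0.876 in shMMP9 and 35.5 ± 2.48 in shControl. The pigment genes PMEL, MLANA and TYRP1 averaged under 2 scaled counts in both groups, and TYR and DCT had no deposited values. Genes used as markers of other cell types were also listed and differed in both directions. All 9 fibroblast markers were listed and summed to 27.2 to 30.05 in shMMP9 libraries and 52.8 to 58.0 in shControl libraries. Of 6 tested, 5 fell, among them COL1A1 (3.15 ± 0.496 in shMMP9, 18.4 ± 1.85 in shControl) and POSTN (0.0591 ± 0.0361 in shMMP9, 5.27 ± 0.998 in shControl), and PDGFRA rose. DCN, 1 of the 5, did not pass without shControl replicate 3 or without shMMP9 replicate 2 (limma adjusted p between 0.069 and 0.0888). COL1A2, COL3A1 and THY1 averaged under 1 scaled count in both groups. The 6 listed endothelial markers summed to 22.1 to 25.7 in shMMP9 and 55.9 to 64.8 in shControl. TIE1 had 4.56 ± 0.617 in shMMP9 and 49.9 ± 3.41 in shControl, whereas KDR had 16.1 ± 0.537 in shMMP9 and 6.44 ± 0.414 in shControl, and CDH5 averaged under 1 in both groups. The 4 listed keratinocyte markers summed to 129 to 139 in shMMP9 and 80.7 to 90.1 in shControl, most of it KRT10. KRT14 had 19.7 ± 1.53 in shMMP9 and 4.04 ± 0.482 in shControl, SFN 2.75 ± 0.745 in shMMP9 and 10.5 ± 1.91 in shControl, and KRT5 averaged under 1 in both groups. The 3 listed leukocyte markers summed to 98.0 to 101 in shMMP9 and 114 to 135 in shControl, most of it CD68, with LYZ at 6.83 ± 0.103 in shMMP9 and 2.196 ± 0.0429 in shControl. All libraries are labelled as A375 cells, so these genes are not taken as a sign of other cell types. Whether other cells were present was not tested, nor was the part of these markers in the results below. In bulk RNA fewer cells of a type and less RNA per cell cannot be told apart.

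At a limma adjusted p under 0.05, all 10 genes were past the threshold, 5 higher in shMMP9 and 5 lower. Across all 17194 tested genes the share past it was 57.5%, with 25% higher and 32.5% lower. Since the genes were chosen with this contrast known, nothing is read from the count. The groups did not overlap for 5 genes that were higher in shMMP9 and 4 that were lower, against 27.6% and 35.1% of all tested genes (62.7% in either direction). A log2 difference of 1 or more in size was seen for IGFBP5 and IGFBP3 (higher, against 3.22% of all genes) and for IRS1, IGFBP7 and IGFBP4 (lower, against 4.96%). The log2 differences ran from -1.26 to 2.94, so the family did not move as a block.

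**Figure D1:**
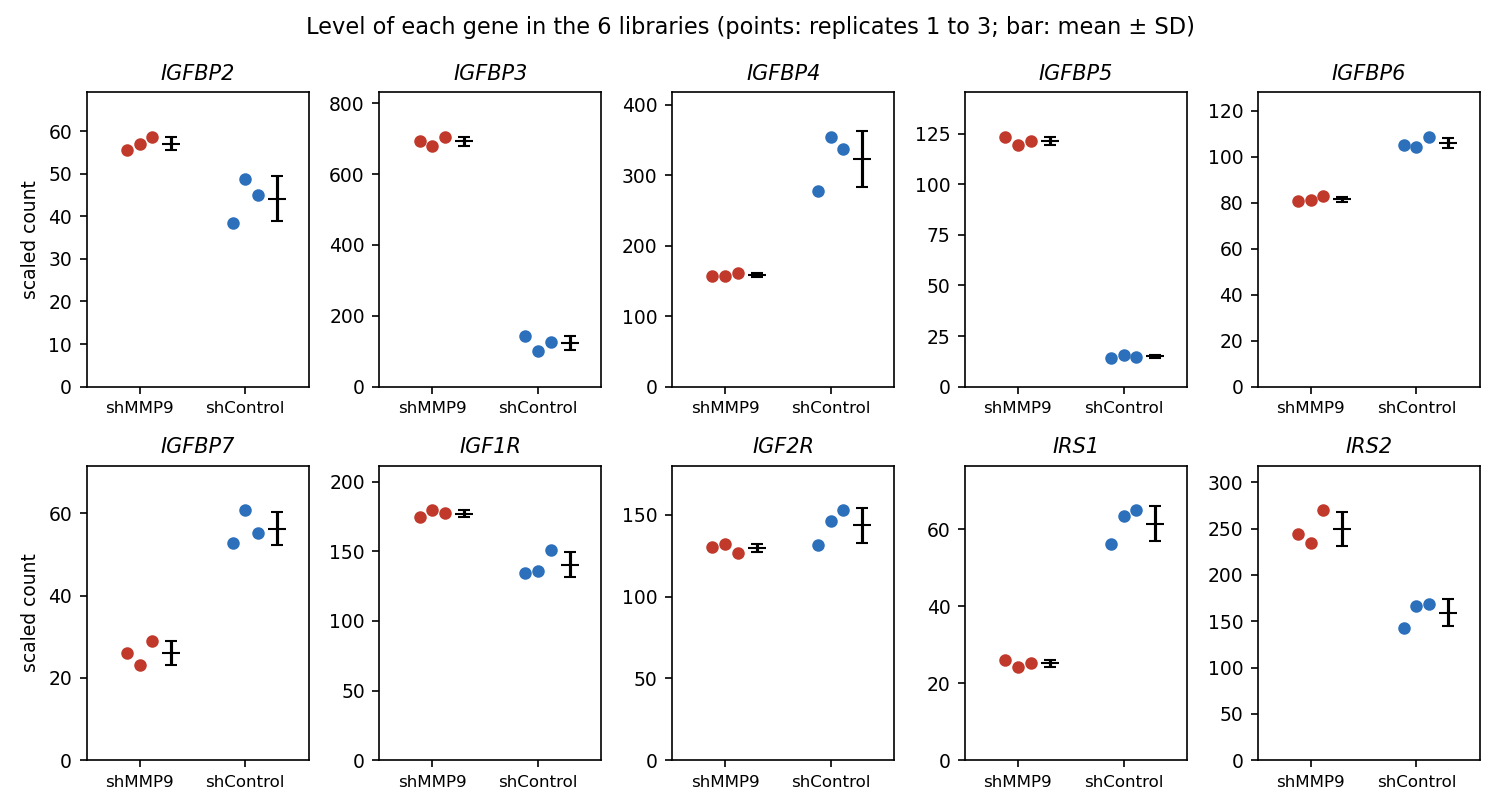
Scaled count (linear axis from 0) of each of the 10 genes in the 3 shMMP9 libraries (red) and the 3 shControl libraries (blue), with the mean ± SD of each group in black. IGFBP3 lies between 678 and 705 in shMMP9, far above its shControl values of 101 to 142, and IGF2R is the gene whose groups overlap.

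Among the binding proteins IGFBP5 differed most. This small secreted protein binds IGFs and extracellular matrix, and its gene lies on chromosome 2, at 216672105 to 216695525 on the minus strand (GRCh38, GENCODE 29). It was listed at 123.3, 119 and 121.5 scaled counts in shMMP9 replicates 1 to 3, against 14.4, 15.9 and 14.6 in shControl. The lowest shMMP9 library was thus far above the highest shControl library, and the spread within each group was small. The means were 121 ± 2.03 in shMMP9 and 14.9 ± 0.804 in shControl, a ratio of 8.12 and a log2 difference of 2.94 (SE 0.0579). Of 11729 genes with a mean CPM of at least 5 (CPM are estimated reads brought to one fixed library total), it ranked 8 by size of rise. In shControl its level exceeded that of 48.5% of tested genes and in shMMP9 that of 91.3%, so it stood near the middle of the transcriptome in shControl and near its upper end in shMMP9. An annotated antisense gene, AC007563.2, shares 298 exonic bases with it on the other strand, and the strand setting of the counting is not given in the sources used here.

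IGFBP3, the main IGF carrier of the circulation, was the most abundant of the family in shMMP9. Its gene occupies chromosome 7 from 45912245 to 45921874, minus strand. The shMMP9 libraries held 694, 678 and 705 scaled counts, and the shControl libraries 142, 101 and 127. Replicates agreed closely in shMMP9, whereas in shControl the highest library held more than the lowest by a wide margin. The group means were 692 ± 13.3 in shMMP9 and 123.4 ± 20.7 in shControl, with a ratio of 5.61 and a log2 difference of 2.49 (SE 0.0908). It ranked 24 by size of rise among the same 11729 genes.

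IGFBP2, which binds IGF2 with preference and carries an integrin-binding motif, was higher by a much smaller amount than its neighbour IGFBP5. Its values were 55.6, 56.9 and 58.6 in shMMP9 and 38.45, 48.8 and 45.1 in shControl. The groups were apart, but the shControl libraries were spread widely. The log2 difference was 0.37 (SE 0.0756) and the ratio of means 1.29. Without shControl replicate 1 it was 0.28. IGFBP2 and IGFBP5 are 7.67 kb apart on chromosome 2 with their 3′ ends facing each other, IGFBP2 at 216632828 to 216664436 on the plus strand, so adjacent genes had ratios of 1.29 and 8.12.

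IGFBP4, an inhibitory binding protein cut by the protease PAPPA, was the most abundant family member in shControl and lower in shMMP9. It was listed at 157, 157 and 162 in shMMP9, against 278, 354.5 and 337 in shControl. No library of one group reached the range of the other. The means were 158.5 ± 2.705 in shMMP9 and 323 ± 40.1 in shControl, a ratio of 0.491 and a log2 difference of -1.01 (SE 0.0734). The gene lies on chromosome 17, 40443461 to 40457731, plus strand.

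IGFBP7, which binds IGFs weakly and insulin in addition, was also lower. Its scaled counts were 26.2, 23.2 and 29.1 in shMMP9, and 52.9, 60.7 and 55.15 in shControl. All shMMP9 values lay well under the lowest shControl value. The means were 26.2 ± 2.92 in shMMP9 and 56.3 ± 4.03 in shControl, a ratio of 0.465 and a log2 difference of -1.08 (SE 0.0805). The gene, on chromosome 4 at 57030773 to 57110385 (minus strand), shares 94 exonic bases with the antisense gene IGFBP7-AS1. It also shares 270 exonic bases with POLR2B, an RNA polymerase II subunit gene on the other strand. POLR2B averaged 168 ± 1.6 in shMMP9 and 151.5 ± 4.66 in shControl (log2 difference 0.15, limma adjusted p = 0.0114), a difference of the opposite sign whose call was lost in 3 of 14 refits (without a variance trend, without shControl replicate 3 and without shMMP9 replicate 1).

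IGFBP6, which prefers IGF2, was modestly lower. The shMMP9 libraries held 80.7, 81.05 and 82.8 scaled counts and the shControl libraries 105, 104 and 109. Both groups were tight and did not overlap. The log2 difference was -0.38 (SE 0.0465) and the ratio of means 0.769. The gene lies on chromosome 12, 53097436 to 53102345, plus strand.

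Both receptors differed little. IGF1R, on chromosome 15 at 98648539 to 98964530 (plus strand), was listed at 174.5, 179 and 178 in shMMP9, against 134, 136 and 151 in shControl. The groups did not overlap, with a ratio of means of 1.26 and a log2 difference of 0.34 (SE 0.0525). IGF2R, on chromosome 6 at 159969099 to 160113507 (plus strand), was listed at 130.5, 132 and 127 in shMMP9 and at 132, 146.5 and 153 in shControl. One shMMP9 library lay above the lowest shControl library, the only overlap among the 10 genes. Its means were 129.8 ± 2.596 in shMMP9 and 144 ± 10.7 in shControl, with a log2 difference of -0.14 (SE 0.0563). It fell short of the threshold in 9 of 14 refits, among them every one that left out a single library except that without shControl replicate 1, where the difference was -0.20.

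The docking proteins parted. IRS1, on chromosome 2 at 226731317 to 226799759 (minus strand), had 26.0, 24.2 and 25.2 scaled counts in shMMP9 and 56.2, 63.3 and 64.85 in shControl. Every shMMP9 value was under every shControl value by a wide margin. The means were 25.1 ± 0.901 in shMMP9 and 61.5 ± 4.595 in shControl, a ratio of 0.409 and a log2 difference of -1.26 (SE 0.0661), the most negative of the 10 genes. IRS2 was listed at 244, 234 and 269.6 in shMMP9 and at 143, 166 and 169 in shControl. Here shMMP9 was the higher group, with means of 249 ± 18.4 in shMMP9 and 159 ± 14.2 in shControl, a ratio of 1.56 and a log2 difference of 0.64 (SE 0.0687). IRS2 lies on chromosome 13 (109752698 to 109786568, minus strand), where the median log2 difference was 0.28 over 204 genes with a mean CPM of at least 5, against -0.03 over all 11729 such genes. For the chromosomes of the other 9 genes that median lay between -0.04 and 0.00. The part of the chromosome 13 shift in the IRS2 difference was not tested. An antisense gene, AL162497.1, shares 115 exonic bases with IRS2.

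**Figure D2:**
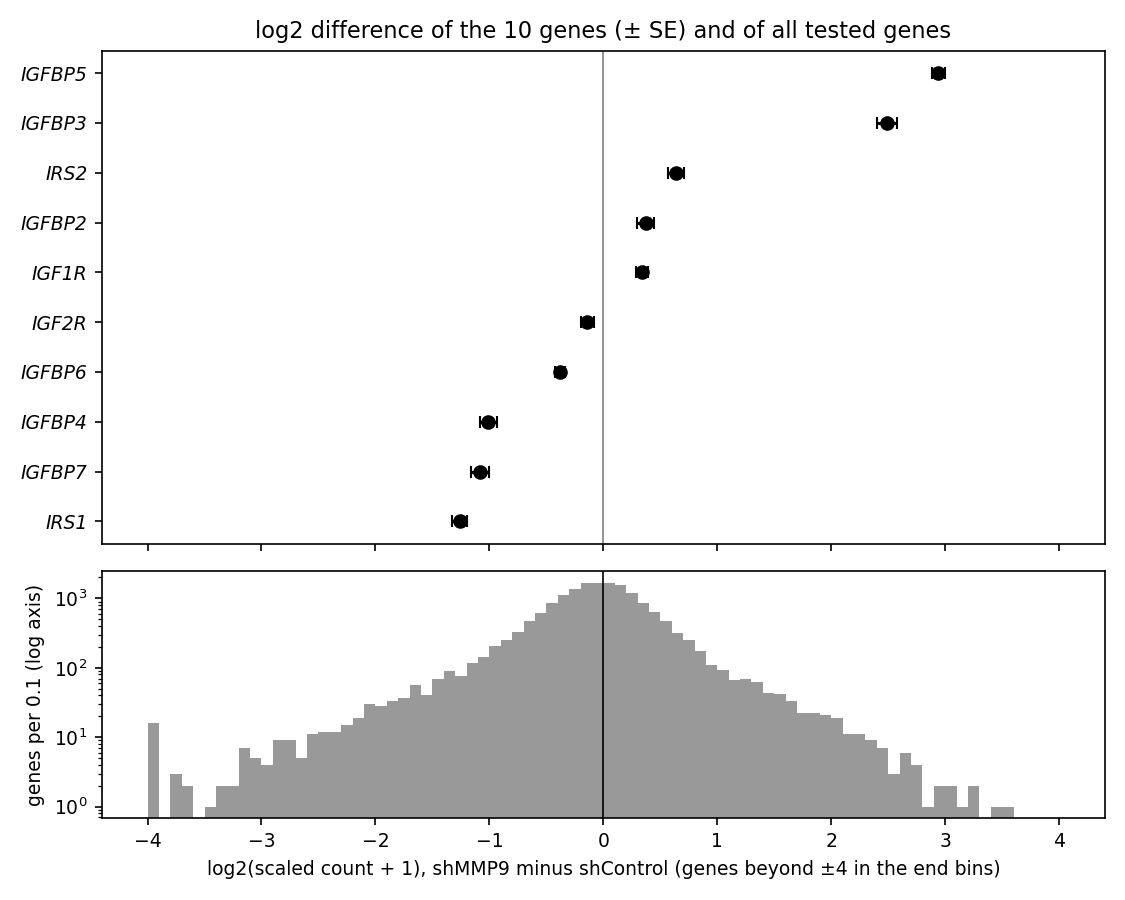
Upper panel, log2 difference (shMMP9 minus shControl) of each of the 10 genes with its SE, ordered by size. Lower panel, the same difference for all 17194 tested genes in bins of 0.1, with a log count axis; IGFBP5 (2.94) and IGFBP3 (2.49) lie in the sparse right tail, while IGF2R (-0.14) lies in the bulk.

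To compare genes with each other, scaled counts were divided by the length of all annotated exons (scaled counts per kb). The order in shMMP9 ran from IGFBP3 at 151 ± 2.91 per kb through IGFBP4 at 72.1 ± 1.23, IGFBP6 at 60.55 ± 0.833, IRS2 at 30.6 ± 2.26 and IGFBP5 at 18.8 ± 0.315 to IGFBP7 at 13.6 ± 1.51, IGF1R at 12.7 ± 0.178, IGFBP2 at 11.97 ± 0.315, IGF2R at 7.275 ± 0.1455 and IRS1 at 2.52 ± 0.0905. In that order IGFBP7 and IGF1R differed by less than the SD of IGFBP7. In shControl it ran from IGFBP4 at 147 ± 18.2 per kb and IGFBP6 at 78.8 ± 1.69 through IGFBP7 at 29.15 ± 2.09, IGFBP3 at 27.0 ± 4.52 and IRS2 at 19.6 ± 1.74 to IGF1R at 10.1 ± 0.657, IGFBP2 at 9.255 ± 1.10, IGF2R at 8.05 ± 0.599, IRS1 at 6.175 ± 0.462 and IGFBP5 at 2.32 ± 0.125. There the neighbours IGFBP7 and IGFBP3, and IGF1R and IGFBP2, stood within an SD of each other. IGFBP5 was thus last of the 10 in shControl and in the middle in shMMP9, and IRS1 was last in shMMP9.

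Shares within a library do not depend on how libraries are scaled to each other. Of the summed per-kb level of the 6 binding proteins, IGFBP3 made up 46.4, 46.0 and 46.0% in the shMMP9 libraries, against 11.4, 7.25 and 9.22% in the shControl libraries. IGFBP4 made up 21.9 ± 0.183% in shMMP9 and 49.9 ± 3.37% in shControl. The first place in the pool thus belonged to IGFBP3 in each shMMP9 library and to IGFBP4 in each shControl library. IGFBP6 held 18.4 ± 0.202% in shMMP9 and 26.9 ± 1.603% in shControl, IGFBP7 4.12 ± 0.379% in shMMP9 and 9.94 ± 0.4345% in shControl, IGFBP5 5.74 ± 0.112% in shMMP9 and 0.791 ± 0.0355% in shControl, and IGFBP2 3.64 ± 0.0702% in shMMP9 and 3.15 ± 0.203% in shControl. The sum itself was 328 ± 6.51 per kb in shMMP9 and 293 ± 17.5 in shControl, a ratio of 1.12. Without division by length the ratio was 1.70, so the size of the difference in the pool depends on the lengths used. That sum gives more weight to the genes with the most annotated exon sequence, IGFBP5, IGFBP2 and IGFBP3.

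**Figure D3:**
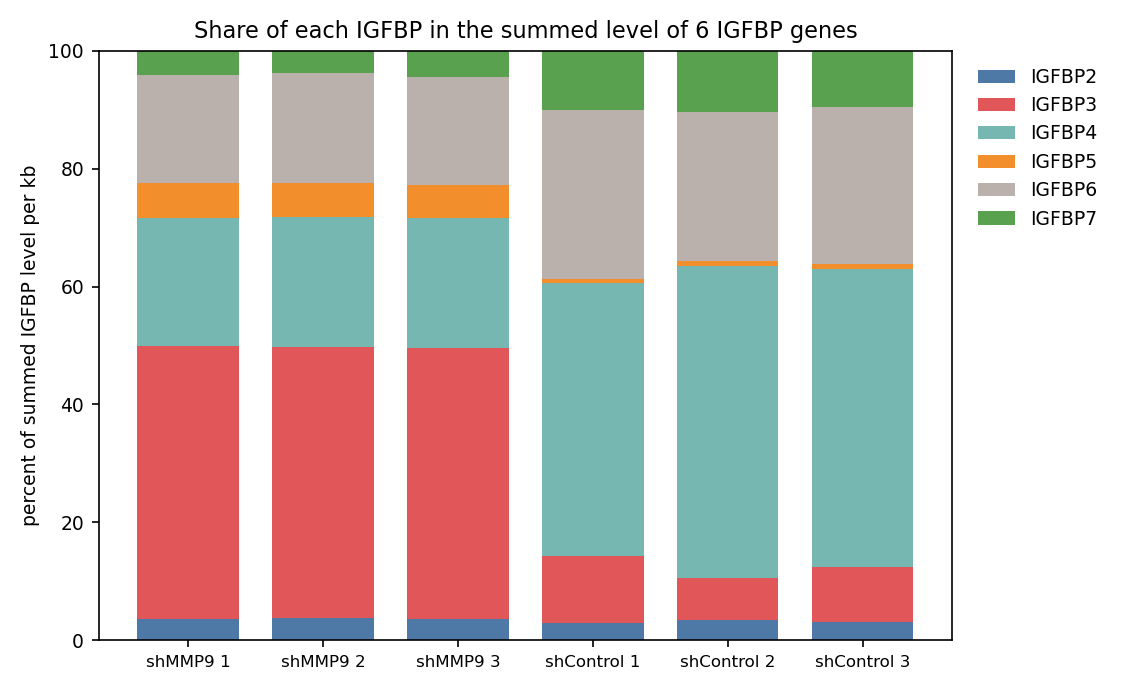
Share of each binding protein gene, in percent, in the summed scaled count per kb of IGFBP2 to IGFBP7, for each of the 3 shMMP9 and 3 shControl libraries. IGFBP3 (red) fills 46.0 to 46.4% of each shMMP9 bar and 7.25 to 11.4% of each shControl bar.

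The balance of the docking proteins differed between the groups in every library. The ratio of IRS2 to IRS1 per kb was 11.5, 11.8 and 13.1 in shMMP9, against 3.11, 3.21 and 3.18 in shControl. Their summed level per kb was 33.1 ± 2.29 in shMMP9 and 25.75 ± 2.20 in shControl. The ratio of IGF1R to the insulin receptor gene INSR per kb was 6.83 ± 0.458 in shMMP9 and 6.67 ± 0.739 in shControl, a difference smaller than either SD.

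Libraries varied in a common way across the 10 genes. The SD of the log2 values was smaller in shMMP9 than in shControl for 9 of them, IGFBP7 being the exception, and for 59.1% of all tested genes. Replicate 1 was the lowest shControl library for 8 of the 10 and the highest for IGFBP3. Over all tested genes it was the lowest for 37.5% and the highest for 38.7%. Leaving that library out moved the log2 difference of IGFBP3 to 2.6, of IGFBP4 to -1.12 and of IRS1 to -1.32.

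The rest of the IGF axis was taken from 10 lists with 90 genes, of which 85 were in the table and 80 were tested. Of these 31 rose and 31 fell, or 77.5%, against 57.5% of all tested genes. With a mean CPM of at least 5 the shares were 78.3% of 69 list genes and 63.9% of 11729 genes. The median log2 difference was -0.05, as over all genes tested. The lists were chosen with earlier results of these data known, and no test of a list was made. Each list's counts below stand against 25% of all tested genes that were higher and 32.5% that were lower.

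IGF2, the only ligand sought that had deposited values and one known for autocrine use in tumours, was listed at 0.638, 1.03 and 0.739 scaled counts in shMMP9 and 0.147, 0.390 and 0.4035 in shControl, from 4 to 26 estimated reads per library. It passed the test (log2 difference 0.46, limma adjusted p = 0.0126) but not without shMMP9 replicate 2 (adjusted p = 0.0574), and its value ran from 0.15 to 1.38 over the alternatives. Reads of IGF2 can also be counted to the readthrough gene INS-IGF2, so its level is uncertain. The liver binding protein gene IGFBP1, 18.6 kb from IGFBP3 on chromosome 7, averaged 0.185 ± 0.1 in shMMP9 and 0.237 ± 0.190 in shControl and was too low to be tested. IGFALS, which stabilises circulating IGF complexes, averaged 0.468 ± 0.148 in shMMP9 and 0.366 ± 0.156 in shControl and did not pass (log2 difference 0.11, adjusted p = 0.532). INSR rose by 0.28 (19.5 ± 1.07 in shMMP9, 15.9 ± 2.31 in shControl, adjusted p = 0.0266), a call lost in 4 of 14 refits, among them those without shControl replicate 1, shMMP9 replicate 1 or shMMP9 replicate 3. IGF1, INS, INSRR and IGFBPL1 had no deposited values.

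Proteases that release IGFs, and their inhibitors, differed in both directions, with 6 of 11 rising and 3 falling. HTRA1, a secreted serine protease that cuts IGFBP5 among other substrates, stood at 40.9, 39.65 and 43.3 in shMMP9 against 8.695, 9.59 and 8.40 in shControl. It rose by 2.10 (limma adjusted p = 8.58e-11), with every shMMP9 library above every shControl library. PAPPA2, a metalloproteinase that cuts IGFBP5 and IGFBP3, fell to 0.385 ± 0.183 in shMMP9, against 4.23 ± 0.386 in shControl. Its log2 difference of -1.92 (adjusted p = 6.05e-08) ran from -3.51 to -0.91 over the alternatives because its level is low. PAPPA, the protease of IGFBP4, averaged 2.46 ± 0.252 in shMMP9 and 3.13 ± 0.615 in shControl and did not pass (adjusted p = 0.152), although it did without shControl replicate 2 (adjusted p = 0.0402). The stanniocalcins, secreted inhibitors of PAPPA, moved apart. STC1 rose by 0.65 (39.5 ± 4.002 in shMMP9, 24.75 ± 2.695 in shControl, adjusted p = 3.13e-05) and STC2 had a log2 difference of -1.33 (15.8 ± 1.44 in shMMP9, 41.0 ± 0.984 in shControl, adjusted p = 5.51e-09). PLAT, the tissue plasminogen activator that leads to plasmin, rose by 2.22, and TIMP1, an inhibitor of metalloproteinases, by 1.57. ADAM12, which can cut IGFBP3 and IGFBP5, rose by 0.40, and the lysosomal protease gene CTSD by 0.36. HTRA3 had a log2 difference of -0.92, between -1.37 and -0.47 over the alternatives, and PRSS23 one of -0.03 that did not pass.

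Of 7 tested surface partners of the binding proteins 5 fell and 2 rose, with a median log2 difference of -0.52 against -0.05 over all tested genes. Of the 5, TMEM219 lost its call in 4 of 14 refits (median-of-ratios and total-read scaling, without shControl replicate 3 and without shMMP9 replicate 1). CAV1, the caveolin of membrane pits, fell to 99.98 ± 4.79 in shMMP9, against 222.5 ± 4.07 in shControl (log2 difference -1.15, limma adjusted p = 3.70e-10). LRP1, an endocytic receptor reported to bind IGFBP3, had a log2 difference of -0.77 and the proteoglycan gene SDC1 one of -0.79. ITGA5, whose integrin is a partner of IGFBP1, rose by 0.57.

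Of 15 tested adaptors, 5 rose, 3 fell and 7 did not pass. In every one of 14 refits 3 of the 5 and all 3 that fell kept their call, while GAB1 (without shControl replicate 2, shMMP9 replicate 1 or 2, or with a replicate block) and SOS1 (without shControl replicate 2, shMMP9 replicate 2 or a variance trend) lost theirs. SH2B3, an adaptor that restrains cytokine and growth factor signalling, rose by 1.36 (381 ± 10.96 in shMMP9, 147 ± 1.34 in shControl, limma adjusted p = 3.02e-11). The related adaptors GRB10 and GRB14, which both bind and inhibit the insulin and IGF1 receptors, went opposite ways. GRB10 rose by 1.16 (28.4 ± 1.26 in shMMP9, 12.2 ± 0.983 in shControl), whereas GRB14 fell to 0.391 ± 0.0907 in shMMP9, against 3.245 ± 0.352 in shControl, with a log2 difference of -1.61 that ran from -3.02 to -0.72 over the alternatives. The docking protein gene GAB2 had a log2 difference of -1.07. Among 12 genes of IRS degradation and negative control 2 rose and 7 fell, with a median log2 difference of -0.21. Only 1 and 4 of these kept their call in every refit. FBXO40, which rose, and FBXW8, NEDD4 and TRIB3, which fell, each lost theirs in 3 or 4 of 14 refits, in 2 to 4 of them through leaving out a single library (shControl replicate 2 or 3, or any shMMP9 replicate). The ubiquitin ligase genes STUB1 and CUL7 had log2 differences of -0.52 and -0.54 and the cytokine-induced inhibitor SOCS3 one of -0.45, while SOCS6 rose by 0.29. CUL7 is part of a ligase known to act on IRS1.

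In the PI3-kinase and AKT arm 7 of 15 genes rose and 6 fell, with a median log2 difference of 0.12, and 6 of the 7 and 3 of the 6 kept their call in every refit. Of those that fell, FOXO3 lost its call in 10 of 14 refits, AKT2 in 4 and PIK3R2 in 3, all of them when no variance trend was used. The single libraries whose omission cost a call were shControl replicates 1 and 3 and shMMP9 replicates 1 and 3 for FOXO3, replicate 2 of each group for AKT2, and shControl replicate 3 and shMMP9 replicate 2 for PIK3R2. PIK3CB, which rose, lost its call in 5 refits (no variance trend, and without shControl replicate 2 or 3 or shMMP9 replicate 1 or 2). The regulatory subunits PIK3R1 and PIK3R3 rose by 0.99 and 0.80, and FOXO1, a transcription factor that AKT keeps out of the nucleus, by 0.85 (11.8 ± 1.44 in shMMP9, 6.05 ± 0.489 in shControl, limma adjusted p = 2.10e-05). The catalytic subunit PIK3CD had a log2 difference of -0.65.

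The IGF2 mRNA-binding proteins, which bind IGF2 and many other transcripts, split by paralogue. IGF2BP1 and IGF2BP2 had log2 differences of -0.67 (90.3 ± 1.92 in shMMP9, 144 ± 5.399 in shControl) and -0.71, and IGF2BP3 rose by 0.20. The IGF2BP3 call was lost without shControl replicate 2, shMMP9 replicate 1 or shMMP9 replicate 2, and without a variance trend. All 4 proprotein convertases, enzymes of the class that cuts the IGF1R precursor into its subunits, rose. FURIN had 252 ± 6.61 in shMMP9 and 135 ± 13.03 in shControl (log2 difference 0.90, limma adjusted p = 6.07e-08). PCSK5 and PCSK6 rose by 1.29 and 1.07 at low levels, with ranges of 0.66 to 1.95 and 0.45 to 2.08 over the alternatives. PCSK7 rose by 0.14, a call lost in 5 of 14 refits, among them those without shControl replicate 3, shMMP9 replicate 1 or shMMP9 replicate 3. The list for the mannose 6-phosphate pathway, which shares IGF2R, also held SORT1 and PLAUR, which are not part of the tagging pathway. Of its 6 genes 1 rose and 2 fell, all by small amounts, and the 2 that fell were SORT1 and PLAUR. GNPTAB, which makes the mannose 6-phosphate tag, rose by 0.25, the sorting receptor SORT1 had a log2 difference of -0.26 and PLAUR one of -0.21. GNPTG had one of 0.20 that did not pass (adjusted p = 0.0625), though it did under median-of-ratios and total-read scaling and without shControl replicate 1 (adjusted p between 0.00846 and 0.024).

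The CCN genes encode matrix proteins with an IGFBP-like domain and were taken here as relatives of the binding proteins. Of 4 tested, 3 fell and 1 rose. CYR61, CTGF and NOV had log2 differences of -2.6, -1.83 and -1.33, and WISP3 rose by 0.43 at 2.25 ± 0.253 in shMMP9 and 1.40 ± 0.0548 in shControl. CYR61 had 92.5 ± 5.06 in shMMP9 and 567 ± 7.875 in shControl (limma adjusted p = 3.77e-13), so the most abundant of them was lower in shMMP9, as IGFBP4 was, whereas IGFBP3 was higher.

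**Figure D4:**
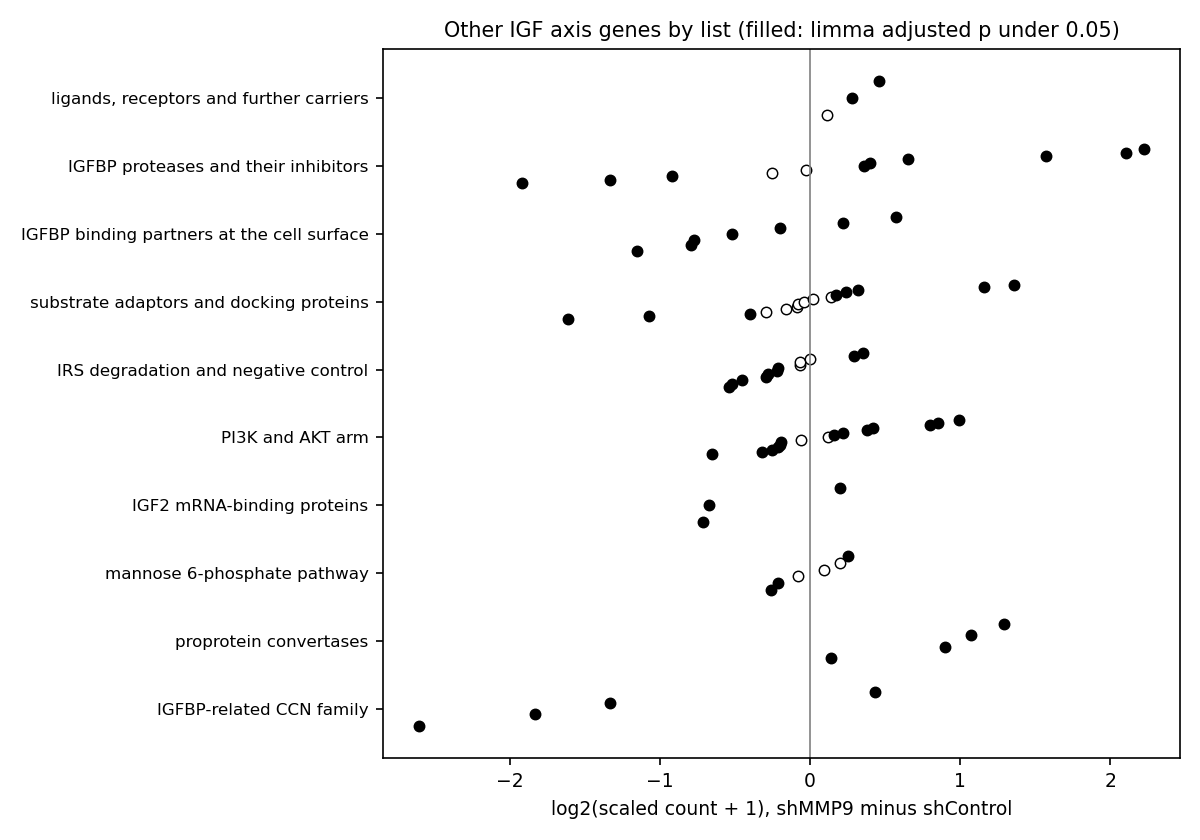
Log2 difference (shMMP9 minus shControl) of each tested gene of the 10 IGF axis lists, 1 row per list, with filled points at a limma adjusted p under 0.05 and open points above it. The 4 proprotein convertases lie right of 0, the CCN family reaches -2.6, and the proteases spread from -1.92 to 2.22.

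For each gene with a log2 difference of 1 or more in size, the 3 genes most like it were found among 11728 others with a mean CPM of at least 5, as the smallest Euclidean distance of profiles (log2 value minus the shControl mean) over the 6 libraries. With only 2 groups, likeness mostly reflects the size of the difference. IGFBP5 was nearest to TFAP2B (distance 0.126), a neural crest transcription factor gene, then PDK4 (0.198) and AKR1C2 (0.231), whose reads may be shared with close homologues. IGFBP3 was nearest to COL19A1 (0.142), a collagen gene, then CHRM3 (0.275) and SYTL5 (0.281). IRS1 was nearest to ARNTL2 (0.082), a circadian transcription factor gene, and AXL (0.101), a receptor tyrosine kinase gene, then KIAA1671 (0.123). IGFBP4 lay nearest to CNDP2 (0.080), NECTIN2 (0.121) and TLN2 (0.136), and IGFBP7 to PCK2 (0.124), PPP1R13L (0.142) and SIK1B (0.150), the last a near-identical copy of SIK1 with uncertain reads.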

How the data were processed

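Total RNA from 6 A375 libraries was measured by RNA sequencing, with groups and replicates read from sample titles. The submitters' processing notes name STAR 2.6.1d, Partek and the build hg38. How reads were counted, with which annotation, strand setting or filter, is not given in the sources used here. In the authors' deposited table there is 1 value per gene and library on a log2 scale. Back on the linear scale, the 75th percentiles were 45.3 to 45.4 in every library and 64.6 to 67.7% of values were whole multiples (within 0.01) of 1 step, so the values were read as log2(scaled count + 1) and the step gave estimated reads. Some 23 symbols read as dates and stayed unnamed. The step was the smallest value of each library, so the lowest estimate of 1 read in a library is set by the method. No gene fell under 11 estimated reads in its highest library. A gene missing from some library cannot be seen.

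As the values are not raw counts, limma 3.58.1 (R 4.3.3) was run on the deposited log2 values (pseudocount 1) with a variance trend, on 17194 genes with at least 10 reads (scaled to the median depth) in 3 libraries and 15 in total. 1345 genes were removed. Benjamini-Hochberg adjustment covered all 17194 genes, at a threshold of 0.05. P-values reflect only how much these 6 samples vary, and that variation may be technical. The fit was first tested on simulated data with 200 of 17194 genes changed and a dispersion of 0.01. It recovered 91% of changes of 1.5-fold and 100% of those of 2-fold, and called 6 unchanged genes. As 57.5% of genes were called in the real data, that simulation does not speak for such a setting. Differences on this scale understate those of genes at low levels. Libraries of a group differed by more than sampling noise (chi-square per gene 2.51 to 14.15 on estimated reads), and each was kept as a separate replicate. The largest values were for shControl replicate 1, at 14.15 against replicate 2 and 9.72 against replicate 3. ShControl replicates 2 and 3 gave 4.02, and the shMMP9 pairs 2.51 to 4.74.

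The 10 genes, the IGF axis lists and the rule for named genes were chosen with earlier results of these data known. The rule names MMP9, all 10 genes, every listed ligand, receptor and protease gene, the 4 genes of each other list with the smallest adjusted p, and the nearest genes in profile and position. Positions, exon lengths and overlaps came from GENCODE 29 (GRCh38), which matched 99.9% of symbols and all 10 genes. Promoter sequences, found for 9 of the 10 genes (all but IGFBP7), came from RefSeq on GRCh38.p14. Marker lists were 9 melanocyte, 9 fibroblast, 8 keratinocyte, 7 endothelial and 7 leukocyte genes. The alternatives, tried one at a time, were a replicate block, leaving out each library, median-of-ratios or total-read scaling, no filter, limma-voom on estimated reads, a threshold of 0.01, pseudocounts of 0.25 or 4, no variance trend and, for the pool, no division by length. Figures were drawn with matplotlib 3.10.9.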

Additional observations from a re-analysis of the deposited data

How the results depend on the processing

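All 10 IGF genes kept their direction in each of 14 refits. The number past the threshold was 9 or 10 in every setting, and the gene lost was IGF2R. Leaving out a library gave 9 to 10 of them, 52 to 63 IGF axis genes (62 with all libraries), 8676 to 10225 of all genes (9888 with all libraries) and -0.75 to -0.63 for MMP9. None of the 3 counts moved by more than 1.5 times under an alternative listed above. Across settings IGFBP5 ran from 2.73 (pseudocount of 4) to 3.02 (limma-voom on estimated reads), IGFBP3 from 2.36 to 2.6, IRS2 from 0.57 to 0.70 and IRS1 from -1.32 to -1.17. Median-of-ratios and total-read scaling raised the median of all genes by 0.04 and 0.05 and gave 4949 rises and 4946 falls, and 4988 and 4898, against 4304 and 5584.

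With no length correction IGFBP3 made up 60.9% of the binding protein pool in shMMP9 and 18.6% in shControl. IGFBP4 made up 13.95% in shMMP9 and 48.3% in shControl, where it kept the largest share. The share of IGFBP2 was 5.02% in shMMP9 and 6.59% in shControl, and that of IGFBP5 10.7% in shMMP9 and 2.24% in shControl. For IGFBP6 it was 7.17% in shMMP9 and 15.9% in shControl, and for IGFBP7 2.30% in shMMP9 and 8.425% in shControl. IGFBP2 then had the smaller share in shMMP9, against the larger one per kb. Which transcripts were present was not tested.

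Replicate numbers gave no sign of pairing. Deviations of same-numbered libraries correlated at 0.04, -0.13 and -0.026, and those of differently numbered libraries at -0.122 to 0.169. These values do not show that the samples were unpaired. With the replicate block 9697 genes, 9 of the 10 IGF genes and 59 IGF axis genes were called, and MMP9 stood at -0.69.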

Other observations

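3 of the binding protein genes have a tensin gene as the next listed gene on one side. None of these 3 neighbours was called higher, against 25% of all tested genes, so nothing is read from that count. TNS1, 1104 kb beyond IGFBP5, averaged 1.23 ± 0.225 in shMMP9 and 7.06 ± 0.560 in shControl (log2 difference -1.85, limma adjusted p = 4.31e-08, from -2.50 to -1.08 over the alternatives), while IGFBP5 was higher in shMMP9. TNS3, beyond IGFBP3, had a log2 difference of -0.20 (83.15 ± 1.09 in shMMP9, 95.6 ± 2.18 in shControl, adjusted p = 0.00263). TNS4, next to IGFBP4, averaged 0.349 ± 0.138 in shMMP9 and 0.609 ± 0.235 in shControl and did not pass (adjusted p = 0.159), although it did without shControl replicate 1 (adjusted p = 0.0471). TOP2A, on the other side of IGFBP4, stood at 281.5 ± 5.635 in shMMP9 and 289 ± 11.9 in shControl and did not pass (adjusted p = 0.515). Tensins link integrins to actin.

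Both listed neighbours of IRS1 were lower in shMMP9, as IRS1 was, against 32.5% of all tested genes called lower. RHBDD1, 35.8 kb away, had a log2 difference of -0.70 (13.3 ± 0.248 in shMMP9, 22.2 ± 1.17 in shControl, adjusted p = 4.16e-06) and DOCK10, 1689 kb away, one of -1.30 (adjusted p = 5.66e-07, from -1.47 to -0.97 over the alternatives). The median over 748 chromosome 2 genes with a mean CPM of at least 5 was 0.00. On either side of IRS2 the nearest listed genes were non-coding and differed in opposite directions, AL161431.1 at -1.91 and AL390755.1 at 0.98. The AL390755.1 value came from low levels (1.33 ± 0.259 in shMMP9, 0.1905 ± 0.171 in shControl) and ran from 0.35 to 3.11 over the alternatives.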
